A study of Homo sapiens with 6 samples.

Results

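KCNE4 and 8 other potassium channel genes of the β cell, namely KCNE3, KCNQ1, KCNB2, KCNH2, KCNH6, KCNK16, KCNMA1 and KCNA3, were followed among the 60671 gene identifiers counted by RNA-seq in EndoC-βH1, an established β cell line derived from human fetal pancreas. KCNE4 was chosen by its own rise with AZD7762 in these same samples, so its values are given as a description and without a test. The 8 others were listed as channels of the β cell with earlier results of these data known, to ask whether pore-forming partners of KCNE4 rose with it. The 3 samples labelled AZD7762 received 1 µM of this inhibitor of CHEK1 and CHEK2, and the 3 samples labelled DMSO received the vehicle. All 6 were of wild-type genotype, spent 1 h in starvation medium (0.5 mM glucose) before a stimulation step of 1 h, and compound or vehicle was present in both. Stimulation was at a low (0.5 mM) or a high (20 mM) glucose concentration. Which glucose concentration each library received is not given. The study's methods call in vitro replicates independent in general, but the labels do not say whether these libraries came from separate cultures. If they did not, the p-values measure only technical spread. The samples were of 1 cell line, which limits them as a model of the islet.

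Potassium channels let potassium leave the β cell and so oppose the depolarization that opens calcium channels and releases insulin. Voltage-gated channels and the calcium-activated BK channel repolarize the cell after each action potential, whereas two-pore channels carry a background current. A channel is built from pore-forming α subunits. The KCNE proteins are small single-pass membrane proteins that conduct nothing on their own and instead bind α subunits and change their gating or their transport to the surface. KCNE4 reduces the current of several α subunits with which it has been expressed, among them those encoded by KCNQ1, KCNA3 and KCNMA1.

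The libraries held between 20486391 and 29402440 counts, and 3 counts, taken as the floor of detection, equalled between 0.102 and 0.146 CPM (counts scaled to the same total in every library), a limit that covers counting error only. All 16 β cell markers examined, among them INS, PDX1 and NKX6-1, lay above 1 CPM in every sample, and none of them was called between the groups. Markers of leukocytes, cells in which KCNA3 carries a main potassium current, summed to at most 0.305 CPM under DMSO and 0.0475 CPM under AZD7762, and CD3E was at 0 counts throughout. The δ cell markers SST and HHEX summed to between 219 and 249 CPM under DMSO and between 258 and 284 CPM under AZD7762. Most of this sum was SST, with means of 214.5 CPM under DMSO and 253.6 CPM under AZD7762. HHEX went the other way, from 20.35 to 17.86 CPM. Mitochondrial genes took between 1.57% and 2.13% of the counts with DMSO and between 2.26% and 2.63% with AZD7762. The acinar markers summed to between 21.0 and 22.6 CPM with vehicle and between 24.7 and 27.5 CPM with the inhibitor, all of it from CPA1, with PRSS1 and CELA3A at 0. The δ cell sum, the acinar sum and the mitochondrial share did not overlap between the groups, and their part in the results below was not tested.

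KCNE4 (ENSG00000152049) lies on the plus strand of chromosome 2 of GRCh37, from 223916908 to 224063117, and no exon of another annotated gene overlaps its exons. The 3 DMSO samples held 19, 23 and 18 counts of KCNE4, and the 3 AZD7762 samples held 416, 437 and 417. Scaled for library size with TMM factors, these were 0.643, 0.846 and 0.863 CPM under DMSO and 16.5, 20.8 and 19.6 CPM under AZD7762. The lowest AZD7762 sample was thus far above the highest DMSO sample, and with DMSO the gene was detected in every sample, at a low level. The means were 0.784 ± 0.122 and 19.0 ± 2.18 CPM (SD, n = 3 in each group). The fitted log2 fold change was 4.60, with 0.157 as its standard error. Leaving out 1 sample at a time gave values between 4.46 and 4.69. KCNE4 was chosen by its rise in these same samples, so neither this range nor the standard error serves as a test. In bulk samples, a change in the number of cells that express a gene and a change in RNA per cell cannot be told apart.

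**Figure D1:**
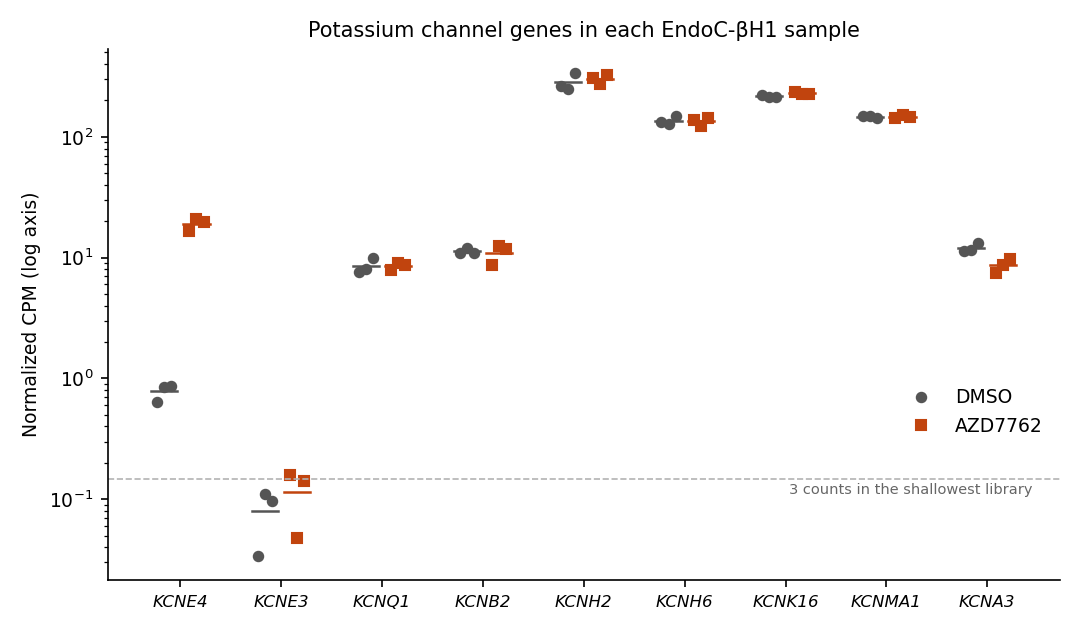
Normalized CPM on a log axis of the 9 channel genes in each of the 3 DMSO samples (circles) and the 3 AZD7762 samples (squares), with the mean of each group as a horizontal line and the level of 3 counts in the shallowest library (0.146 CPM) as a dashed line. KCNE4 moved from a mean of 0.784 to 19.0 CPM, and KCNE3 stayed near the floor. Each AZD7762 sample of KCNA3 lies below each DMSO sample, and both groups of the other genes lie close together.

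The other KCNE genes remained at or near the floor of detection in both groups. KCNE3, whose product keeps KCNQ1 channels open at rest, had 1, 3 and 2 counts with DMSO and 4, 1 and 3 counts with AZD7762, and it was the 1 member that did not pass edgeR's filter on low counts. The samples of the 2 groups overlapped, and no fold change is given for values this low. KCNE1, the partner of KCNQ1 in heart muscle, had at most 3 counts in any sample, KCNE2 at most 1 and KCNE5 at most 6. KCNE4 was therefore the 1 gene of the 5 in this family that could be tested. Genes on the opposite strand overlap 65.4% of the exon length of KCNE2 and 16.9% of that of KCNE3, and an identifier on the same strand overlaps 43.1% of that of KCNE1, so the few counts of these genes are uncertain in addition.

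Among the 17649 genes tested by edgeR's quasi-likelihood test, 125 (0.708%) were called (adjusted p under 0.05), 63 (0.357%) higher and 62 (0.351%) lower with AZD7762. This total depended on the setting, with 77 genes called without AZD7762 replicate 1 and 378 with the replicate number as a block. Of the 7 members that were tested besides KCNE4, 0 were called in this way and 1, KCNA3, had an unadjusted p under 0.05. DESeq2's Wald test also called 0 of the 7, whereas 4 of the 16 alternative settings called KCNA3. The median log2 fold change of the 7 was 0.0013, against 0.0076 over all genes tested, and 4 were higher and 3 lower, with signs that turned under some settings for those nearest to 0. Groups did not overlap for 2 of the 7, KCNK16 and KCNA3, compared with 15.0% of all genes tested.

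KCNQ1 encodes the α subunit of a slowly activating voltage-gated channel and is the best known partner of the KCNE proteins. Its values were 7.55, 8.02 and 9.87 CPM under DMSO and 7.91, 8.98 and 8.63 CPM under AZD7762. The AZD7762 samples all lay within the range of the DMSO samples. The fitted difference of KCNQ1 was 0.01 ± 0.120 on the log2 scale (SE; adjusted p = 0.986 by edgeR), with a 95% interval from -0.25 to 0.27, which corresponds to between 0.841 and 1.21 times the DMSO level. The sign of this small value changed in 6 of 16 alternative settings, other scaling factors included. The exons of KCNQ1, on chromosome 11 from 2465884 to 2870335, overlap those of the antisense RNAs KCNQ1OT1 and KCNQ1-AS1 over 2.72% and 1.26% of their length. Whether counting used the strand is not given in the sources used here.

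KCNMA1 encodes the pore of the BK channel, which opens with voltage and calcium and shapes the repolarization of human β cells. Its values were 148, 149 and 144 CPM under DMSO and 142, 152 and 146 CPM under AZD7762. The groups overlapped, and the fitted difference was 0.0013 ± 0.0562 on the log2 scale (SE; adjusted p = 0.998 by edgeR). The 95% interval, -0.12 to 0.12, left room for a change to between 0.920 and 1.09 times the DMSO level. The sign of this value turned in 8 of the 16 alternative settings, other scaling factors included.

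KCNA3 encodes a Kv1 α subunit on chromosome 1 (111196182 to 111217562, minus strand), and KCNE4 is known to reduce the current of its product in leukocytes. The samples held 11.3, 11.5 and 13.1 CPM under DMSO and 7.47, 8.65 and 9.80 CPM under AZD7762. Each AZD7762 sample lay below each DMSO sample, a direction opposite to that of KCNE4. The log2 fold change was -0.47 with a 95% interval from -0.72 to -0.22, an unadjusted p of 0.00144 and an adjusted p of 0.124 in edgeR's quasi-likelihood test, so the gene was not called over all genes. Over the alternative settings the log2 fold change lay between -0.57 and -0.38 and the adjusted p between 0.00512 and 0.606, and the settings that called it included the likelihood ratio test, the exact test and the fit without a filter. Of the 6 genes listed as α subunits bound by KCNE4, 3 were tested, namely KCNQ1, KCNMA1 and KCNA3. KCNA1 had 0 counts in every sample and KCND2 had at most 3.

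**Figure D2:**
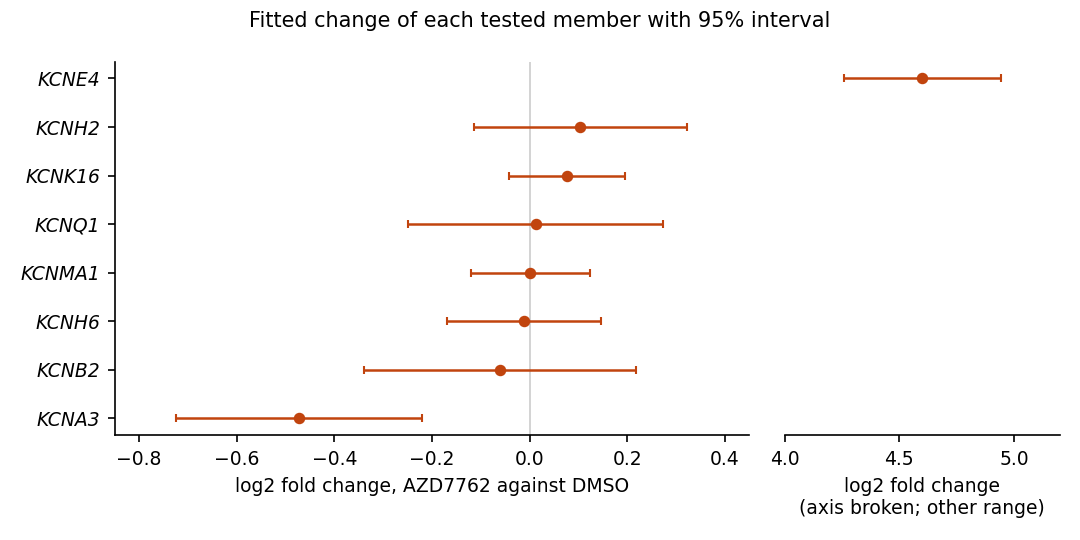
Log2 fold change of AZD7762 against DMSO for the 8 tested members (points) with 95% intervals from edgeR's quasi-likelihood fit (bars), on a broken axis whose right panel shows only the range of KCNE4. KCNE4 stands at 4.60, the intervals of 6 members include 0, and that of KCNA3 runs from -0.72 to -0.22. The bar of KCNE4 is a description only, since the gene was chosen by this change.

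KCNB2 encodes a Kv2 α subunit, a type of channel that carries much of the delayed rectifier current of β cells. It had 10.9, 12.1 and 11.0 CPM under DMSO and 8.63, 12.4 and 11.7 CPM under AZD7762, where replicate 1 was the lowest of all 6 samples. The log2 fold change was -0.06, with a 95% interval from -0.34 to 0.22 and an adjusted p of 0.917 in edgeR's test, and without AZD7762 replicate 1 it was 0.08.

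KCNH2 and KCNH6 encode α subunits of the ERG type, which deactivate slowly and help to end bursts of action potentials. KCNH2 (chromosome 7, 150642049 to 150675409) had 262, 249 and 335 CPM under DMSO and 309, 276 and 322 CPM under AZD7762. DMSO replicate 3 was its highest sample, and the groups overlapped. The log2 fold change of 0.10 had a 95% interval from -0.11 to 0.32 (adjusted p = 0.796, edgeR) and ranged from 0.014 to 0.25 when 1 sample at a time was left out. KCNH6 (chromosome 17, 61600695 to 61626338) had 132, 127 and 147 CPM under DMSO and 137, 124 and 142 CPM under AZD7762, so that its lowest value was an AZD7762 sample and its highest a DMSO sample. Its log2 fold change was -0.01, with a 95% interval from -0.17 to 0.15 and an adjusted p of 0.977 in edgeR's test, and its sign turned in 2 of 16 alternative settings.

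KCNK16 encodes TALK-1, a two-pore background channel of the β cell, and is the 1 pore-forming member that is not gated by voltage. On chromosome 6, from 39282474 to 39290744, it had 223, 213 and 215 CPM under DMSO and 234, 228 and 224 CPM under AZD7762. All AZD7762 samples lay above all DMSO samples, by a small margin. The log2 fold change was 0.08, with a 95% interval from -0.04 to 0.20 and an adjusted p of 0.704 in edgeR's test, so the difference was not larger than the spread allowed for by the fit. Its neighbour KCNK17, the gene of a related two-pore channel, had a log2 fold change of 0.0038.

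Levels between genes were compared in CPM per kb of exon, on the combined exon length of each gene. With DMSO, KCNK16 was the highest of the 9 members at 110 ± 2.61 CPM per kb (SD, n = 3), and it was also first among the 100 potassium channel genes examined. KCNH2 (39.1 ± 6.45) and KCNH6 (32.2 ± 2.51) followed, and the ranges of this pair over the 3 samples overlapped. KCNMA1 (3.72 ± 0.0686), KCNB2 (3.02 ± 0.179), KCNQ1 (1.91 ± 0.276), KCNA3 (1.18 ± 0.0976), KCNE4 (0.209 ± 0.0326) and KCNE3 (0.0222 ± 0.0113) came next in this order, each with a range apart from its neighbour's. KCNE4 thus ranked 8 of the 9 members and 47 of the 100 genes with DMSO.

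With AZD7762, KCNE4 reached 5.06 ± 0.581 CPM per kb (SD, n = 3), which placed it 4 of the 9 members and 14 of the 100 genes. The ratio of KCNE4 to KCNQ1 on this scale was 0.101, 0.125 and 0.104 in the DMSO samples and 2.48, 2.75 and 2.69 in the AZD7762 samples. The KCNE4 transcript was therefore below that of KCNQ1 in each DMSO sample and above it in each AZD7762 sample. The ratio to KCNA3 went from 0.176 ± 0.0227 to 5.95 ± 0.549 (SD, n = 3 in each group). KCNE4 remained well below KCNH2, with a ratio of 0.121 ± 0.0214 with AZD7762. The ratio to KCNMA1 was 1.36 ± 0.114 with AZD7762, but this order rests on the length used, since the annotation gives KCNMA1 39437 bases of exon in all and 12071 in its longest transcript. On the length of the longest transcript, KCNMA1 had 12.2 and KCNE4 6.50 CPM per kb with AZD7762, and the order of the other members was the same. These ratios use the value that chose KCNE4 and describe transcripts, not subunits in the membrane.

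**Figure D3:**
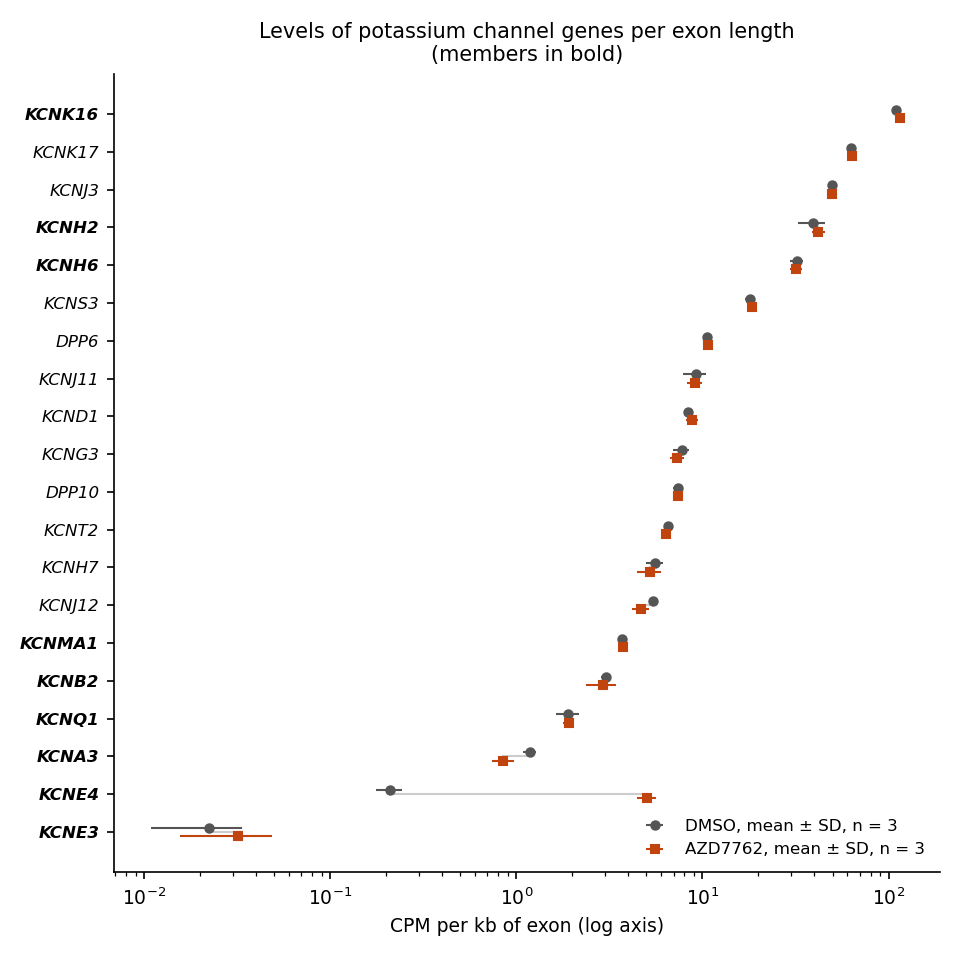
CPM per kb of exon on a log axis for the 9 members (bold) and 11 other potassium channel genes at 4 CPM per kb or more with DMSO, as mean ± SD of the 3 DMSO samples (circles) and the 3 AZD7762 samples (squares), with a grey line joining the 2 means of a gene. KCNE4 moved from 0.209 to 5.06 CPM per kb, past KCNA3, KCNQ1, KCNB2 and KCNMA1, and KCNA3 moved from 1.18 to 0.853.

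The summed level of the α subunits listed as bound by KCNE4 was 6.85 ± 0.333 CPM per kb with DMSO and 6.54 ± 0.339 CPM per kb with AZD7762, and that of the 40 voltage-gated α subunits was 131 ± 9.40 and 133 ± 6.62 CPM per kb (SD, n = 3 in each group). In each case the groups overlapped. KCNMA1 gave 3.72 CPM per kb of the first sum in each group. On the length of its longest transcript KCNMA1 alone had 12.1 CPM per kb with DMSO and 12.2 with AZD7762. The first sum therefore rests on the length used. KCNE4 made up 0.0493% ± 0.00753 of the summed level of the potassium channel genes with DMSO and 1.16% ± 0.140 with AZD7762.

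Potassium channel genes were then taken by family, and 56 of the 100 with an identifier passed the filter. Besides KCNE4, 0 of the remaining 55 were called higher and 1 was called lower, against 0.357% and 0.351% of all genes tested. Their median log2 fold change was -0.0096, against 0.0076 over all genes tested. Groups did not overlap for 6 of the 55, compared with 15.0% of all genes tested. Changes under 0.25 in size on the log2 scale were found for 48 of the 55 (87.3%), compared with 85.1% of all genes tested. The largest positive value among the 55 was 0.24, for KCNC4, a Kv3 α subunit, with a 95% interval from -0.12 to 0.59 (adjusted p = 0.691, edgeR).

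The 1 gene called lower was KCNH8, which encodes a Kv12 α subunit of the ELK type, related to the ERG channels. KCNH8 (ENSG00000183960, chromosome 3, 19190002 to 19577134) had 10.8, 11.0 and 11.2 CPM under DMSO and 5.13, 5.37 and 6.89 CPM under AZD7762. The AZD7762 samples all lay well below the DMSO samples, which differed little among themselves. The difference on the log2 scale was -0.93 ± 0.120 (SE; adjusted p = 0.00151 by edgeR), and the gene was called in each of the 16 alternative settings. KCNH3 and KCNH4 of the same family had log2 fold changes of 0.04 and -0.04 and were not called. KCNH2, KCNH6 and KCNH7 had log2 fold changes of 0.10, -0.01 and -0.09 and were not called either. The sign for KCNH6 turned without DMSO replicate 3 (0.055) and without AZD7762 replicate 2 (0.037).

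Of the 40 voltage-gated α subunits, 21 were tested, 10 of them higher and 11 lower, with a median of -0.01. After KCNH8, the lowest values were -0.59 for KCNF1, a Kv5 subunit that forms no channel alone, and -0.51 for KCNA2, a Kv1 gene that like KCNA3 lies on chromosome 1, where edgeR gave an adjusted p of 0.703 and of 0.336. KCNA2 had 2.15 ± 0.0763 CPM under DMSO and 1.51 ± 0.114 CPM under AZD7762 (SD, n = 3 in each group), without overlap, and its 95% interval ran from -0.88 to -0.13. KCNC4 (0.24) and KCNC2 (0.21) were the highest, and each had an interval that included 0.

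The 11 tested two-pore channels had a median log2 fold change of -0.14, and 0 were called. KCNK3 (0.11), KCNK16 (0.08) and KCNK15 (0.05) were highest and KCNK9 (-0.34), KCNK12 (-0.27) and KCNK6 (-0.20) lowest. The 10 inward rectifiers lay between -0.21 and 0.05. KCNJ16, KCNJ15 and KCNJ2, each at 0.05, were highest and KCNJ12 (-0.21), KCNJ6 (-0.08) and KCNJ4 (-0.04) lowest, where reads of KCNJ12 may be shared with the near-identical KCNJ18. KCNJ11, the pore of the ATP-sensitive channel, had 45.5 CPM under DMSO and 45.1 CPM under AZD7762. The 5 calcium- and sodium-activated channels lay between -0.25 and 0.13, and the 8 other auxiliary subunits between -0.19 and 0.06, and edgeR's test called 0 in either list, with 0 at an unadjusted p under 0.05.

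**Figure D4:**
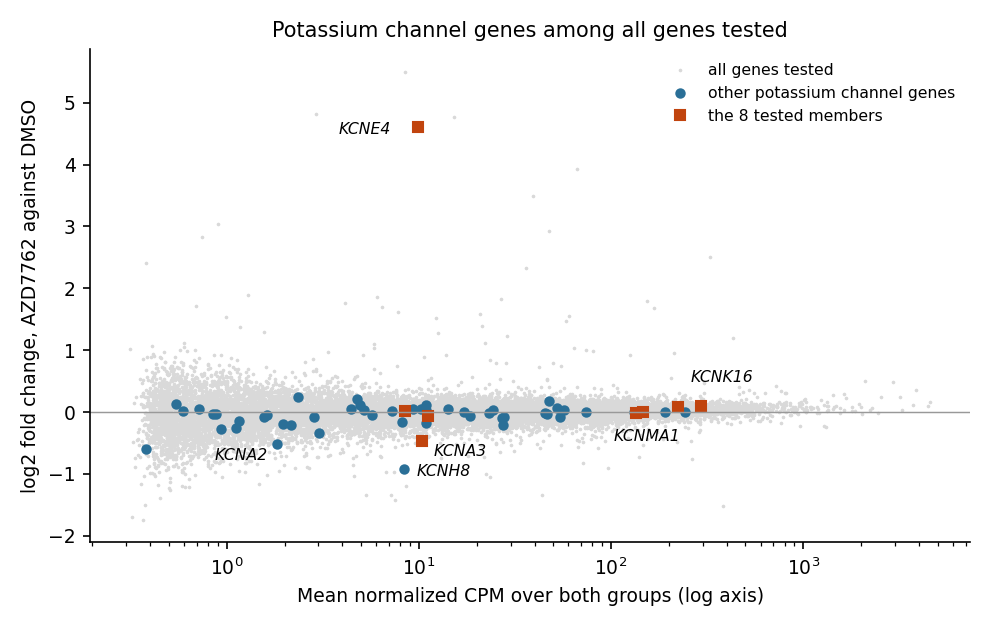
Log2 fold change of AZD7762 against DMSO over mean normalized CPM (log axis) for all 17649 genes tested (grey), the 8 tested members (squares) and the other 48 tested potassium channel genes (circles). Among the channel genes KCNE4 is the highest at 4.60, KCNH8 is the lowest channel gene at -0.93, and the remaining channel genes lie between -0.59 and 0.24.

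The genes whose pattern was most like that of KCNE4 were sought among all genes tested, by the distance between the 6 values of log2(CPM + 0.5) after each gene's mean was subtracted. None of the 5 nearest was a channel gene. NR4A2, an orphan nuclear receptor, was nearest at a distance of 0.224, from 8.25 ± 1.02 to 125 ± 24.7 CPM (SD, n = 3 in each group). SIK1, a salt-inducible kinase, was at 0.528 and NR4A1 at 0.766. The identifier ENSG00000275993, which may share reads with SIK1, was at 0.977. NPAS4, an activity-dependent transcription factor, was at 0.999. The 7 other tested members were at distances between 4.69 and 5.36. The distance is a description over 6 samples in 2 groups and ranks mainly the size of the difference between the groups on this scale. The added 0.5 makes differences of genes at a low level smaller there than in the fit. The fitted log2 fold changes were 3.93 for NR4A2, 4.77 for SIK1, 3.50 for NR4A1, 4.825 for ENSG00000275993 and 5.50 for NPAS4. Beside 4.60 for KCNE4, these do not follow the order of the distances.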

How the data were processed

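Total RNA of 6 EndoC-βH1 samples was made by the authors into libraries of polyadenylated RNA, using 1 unstranded or 1 stranded kit. Which kit made which library, the aligner and the annotation release are not given in the sources used here. Per the submitters' processing notes, FastQC (v0.10.1), cutadapt (v1.18) and GRCh37 were used. The study's methods name HTSeq-count for counting per gene. Raw counts were deposited, 1 file per sample, neither scaled nor filtered.

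Samples were grouped by the treatment in their labels. Of 60671 identifiers, 58646 were matched to symbols, positions and exon lengths of GENCODE release 44 on GRCh37. R 4.3.3 and edgeR 4.0.16 were used: filterByExpr, TMM factors (0.983 to 1.02) and the two-sided quasi-likelihood test with no term besides treatment. Benjamini-Hochberg adjustment was made over all 17649 genes tested, at a threshold of 0.05. Standard errors were obtained from the F statistic and the log2 fold change, and 95% intervals use the t distribution of the fit. Alternatives were DESeq2 1.42.0, other tests, scaling factors and filters, the replicate number as a term, removal of GC content and length trends, and leaving out each sample.

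Members, gene lists and naming rules were chosen with earlier results of these data known. The genes named are the members, the called genes of the channel lists, the 3 highest and 3 lowest of each list with at least 10 tested genes, the other KCNE genes and KCNE4 partners, and the 5 genes most like KCNE4. Some genes that these rules name are not reported here. KCNH3, KCNH4, KCNH7, KCNK17 and KCNJ11 were named after their values were seen. Replicates of a group differed by more than sampling noise (chi-square per gene 4.92 to 9.53).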

Additional observations from a re-analysis of the deposited data

How the results depend on the processing

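Of the 7 tested members besides KCNE4, KCNA3 was called in 4 of the 16 alternatives, which takes the count of members called from 1 to 2 with KCNE4, whose own call was fixed by how it was chosen. These 4 were the fit without a filter on low counts, edgeR's likelihood ratio test, its exact test and the replicate block, with adjusted p for KCNA3 of 0.00512, 0.0173, 0.0190 and 0.0144. KCNH8 was called in each of the 16 alternatives. The count over all genes, 125, became 330, 267, 254 and 378 in these 4, and 221 after removal of GC and length trends. The leave-one-out fits called between 77 genes (AZD7762 replicate 1 omitted) and 168 (DMSO replicate 3 omitted). The cause was not tested. Deviations of same-numbered samples from their group means correlated at r = 0.0533, 0.124 and 0.210. Those of samples with different numbers correlated between -0.253 and 0.175. DMSO replicates 2 and 3 correlated best with the AZD7762 sample of their own number, whereas DMSO replicate 1 correlated best with AZD7762 replicate 2 (0.175). The labels do not say whether same-numbered samples were handled together, so the replicate block stayed an alternative. Its extra calls say nothing of a stronger effect.

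Members close to 0 changed sign without being called. KCNQ1 became -0.0051 with upper-quartile factors, -0.024 with library totals, -0.049 with GC and length trends taken out, and -0.072, -0.031 and -0.035 without DMSO replicate 1, DMSO replicate 2 and AZD7762 replicate 2. KCNMA1 became -0.00098 with RLE factors, -0.016 with upper-quartile factors, -0.034 with library totals, -0.0021 without a filter, -0.0035 with at least 10 counts in every sample, -0.0011 in DESeq2, and -0.011 and -0.032 without DMSO replicate 3 and AZD7762 replicate 2. KCNB2 became 0.082 without AZD7762 replicate 1, and KCNH6 0.055 and 0.037 without DMSO replicate 3 and AZD7762 replicate 2. In the leave-one-out fits KCNQ1 lay between -0.07 and 0.13, KCNB2 between -0.17 and 0.08, KCNH6 between -0.063 and 0.055, and KCNMA1 between -0.032 and 0.017.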

Other observations

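RNAs from the loci of potassium channel genes were also counted, and were named after their values were seen. KCNQ1OT1, the antisense RNA of the imprinted KCNQ1 locus, had 5.86, 5.70 and 8.53 CPM under DMSO and 3.58, 4.52 and 7.69 CPM under AZD7762, and the groups overlapped. KCNMA1-AS1 had at most 6 counts in any sample, and KCNQ1-AS1 had 0 counts in all 6. KCNRG, the gene of a soluble protein that binds Kv1 subunits and reduces their current, had 0.440, 0.956 and 0.671 CPM under DMSO and 0.994, 1.19 and 0.985 CPM under AZD7762. The AZD7762 samples of KCNRG lay above the DMSO samples, while the gene was not called over all genes (adjusted p = 0.538, edgeR).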
